A study of Mus musculus with 12 samples.

Results

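The 6 libraries described here were the H3K27ac and the H3K27me3 CUT&RUN libraries of old mouse mesenchymal stem cells (MSCs), 3 for each mark, out of 12 libraries in the whole series. They were chosen by their labels alone, and the libraries of young cells entered no value. MSCs are stromal cells able to form bone, fat and cartilage, and the old mice they came from were aged 18 to 22 months. The cells were cultured under 2% oxygen only, and 300000 cells were taken per sample, bound to beads and divided between the antibodies. In CUT&RUN an antibody brings a nuclease to the mark it binds, in opened but unfixed cells, and the DNA cut loose there is sequenced. Neither genotype nor sex, nor whether the replicates came from separate animals, is given in the sources used here, so the spread between replicates may be technical. Of 31617 H3K27ac regions and 28047 H3K27me3 regions in the tables, 31526 and 27172 had been called by the authors in old cells and were kept.

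The marks occupy the same residue, lysine 27 of histone H3, and a single lysine cannot carry both. Acetylation is placed by the acetyltransferases p300 and CBP at active promoters and enhancers. Trimethylation is placed by EZH1 or EZH2 within Polycomb repressive complex 2, spreads over broad domains and holds developmental regulators of other lineages silent. CpG islands, stretches rich in the CG dinucleotide, are the sites where Polycomb complexes are recruited in mammals when the promoter is not transcribed, and they are also the promoters of most housekeeping genes.

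The 250 bases before the transcription start site (TSS) are shown for a few promoters of each class, with every CG in capitals, because CG content differed between the classes described below. They come from RefSeq (GRCm38.p6). Of the genes in the lists used below whose window had a RefSeq start close to the annotated TSS and overlapped no annotated exon, the 2 with the highest signal per kb were taken per class, and for neither mark the first 2 in list order. Hoxa10, a homeobox gene of body position, and Ring1, a core subunit of Polycomb repressive complex 1, lay under H3K27ac only.
Hoxa10 promoter, chr6:52240855-52241104, minus strand: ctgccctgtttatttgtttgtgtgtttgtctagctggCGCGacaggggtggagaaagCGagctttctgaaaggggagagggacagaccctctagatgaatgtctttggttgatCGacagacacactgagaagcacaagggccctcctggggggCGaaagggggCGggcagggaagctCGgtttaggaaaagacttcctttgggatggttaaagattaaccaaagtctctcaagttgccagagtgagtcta
Ring1 promoter, chr17:34024681-34024930, minus strand: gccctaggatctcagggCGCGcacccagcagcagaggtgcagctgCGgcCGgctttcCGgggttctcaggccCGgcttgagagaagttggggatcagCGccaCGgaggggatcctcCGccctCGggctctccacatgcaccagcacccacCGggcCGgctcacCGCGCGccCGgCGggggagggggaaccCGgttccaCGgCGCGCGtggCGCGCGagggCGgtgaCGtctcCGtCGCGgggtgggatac
Pax6, a regulator of eye and brain, and Pou4f1, a regulator of sensory neurons, lay under H3K27me3 only.
Pax6 promoter, chr2:105668646-105668895, plus strand: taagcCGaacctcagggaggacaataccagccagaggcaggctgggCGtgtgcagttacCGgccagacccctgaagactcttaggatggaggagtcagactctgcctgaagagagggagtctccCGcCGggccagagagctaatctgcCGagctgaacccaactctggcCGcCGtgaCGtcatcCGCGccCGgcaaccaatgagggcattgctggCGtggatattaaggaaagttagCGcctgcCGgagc
Pou4f1 promoter, chr14:104468000-104468249, minus strand: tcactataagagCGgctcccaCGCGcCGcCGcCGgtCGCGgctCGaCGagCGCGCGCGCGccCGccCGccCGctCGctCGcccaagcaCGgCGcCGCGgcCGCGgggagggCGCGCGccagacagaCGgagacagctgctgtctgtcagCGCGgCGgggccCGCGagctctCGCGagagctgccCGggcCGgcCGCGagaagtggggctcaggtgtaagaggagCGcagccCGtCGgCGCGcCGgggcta
Hoxd8 and Matn3, which encodes a cartilage matrix protein, lay under regions of both marks. Their means were 0.690 and 1.80 H3K27ac per kb and 1.81 and 0.799 H3K27me3 per kb.
Hoxd8 promoter, chr2:74704365-74704614, plus strand: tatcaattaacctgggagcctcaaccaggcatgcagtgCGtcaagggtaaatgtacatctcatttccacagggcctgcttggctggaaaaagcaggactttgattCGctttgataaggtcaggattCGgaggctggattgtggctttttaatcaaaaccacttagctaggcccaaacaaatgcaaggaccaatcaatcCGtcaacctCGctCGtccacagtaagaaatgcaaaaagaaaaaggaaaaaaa
Matn3 promoter, chr12:8947679-8947928, plus strand: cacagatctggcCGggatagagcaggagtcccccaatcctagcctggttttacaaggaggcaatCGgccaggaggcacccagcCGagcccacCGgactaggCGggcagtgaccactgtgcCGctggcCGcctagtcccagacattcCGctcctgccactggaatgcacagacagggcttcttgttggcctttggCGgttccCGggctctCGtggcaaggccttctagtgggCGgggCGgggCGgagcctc
Bglap, which encodes the bone protein osteocalcin, and Hoxa5 lay under neither mark.
Bglap promoter, chr3:88384467-88384716, minus strand: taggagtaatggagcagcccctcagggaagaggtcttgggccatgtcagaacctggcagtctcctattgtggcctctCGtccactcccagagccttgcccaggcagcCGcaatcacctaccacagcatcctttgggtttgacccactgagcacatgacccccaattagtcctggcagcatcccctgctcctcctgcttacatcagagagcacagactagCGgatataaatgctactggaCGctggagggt
Hoxa5 promoter, chr6:52204588-52204837, minus strand: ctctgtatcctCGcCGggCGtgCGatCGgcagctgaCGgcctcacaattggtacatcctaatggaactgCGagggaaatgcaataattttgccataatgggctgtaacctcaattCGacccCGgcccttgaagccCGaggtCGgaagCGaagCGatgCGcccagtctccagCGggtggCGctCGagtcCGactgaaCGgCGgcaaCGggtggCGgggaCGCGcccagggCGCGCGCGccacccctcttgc
These windows held 7, 30, 15, 47, 6, 14, 4 and 28 CG, in the order shown, so the pair shown for a class could differ widely. Over all 16521 promoters with a RefSeq sequence the median was 10 CG, and 93.0% held at least 1, on either strand since CG reads the same on both. The median was 17 CG for H3K27ac only, 14 for both marks, 6 for H3K27me3 only and 2 for neither mark. Among promoters with neither mark 76.9% held a CG, against 99.5%, 99.0% and 94.6% with H3K27ac only, both marks and H3K27me3 only.

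The deposited signal of a region had been summed over its length, so it was divided by length here. Signal per kb is the number of reads per kb of region per 1000000 mapped reads, and reads spread evenly over the genome would give 0.378. Library sizes were computed from the deposited signal with a constant of 0.5 kb, described below. The H3K27ac libraries held 5541429, 2750953 and 3719920 mapped reads in replicates 1, 2 and 3, and the H3K27me3 libraries held 9302321, 3622108 and 6856481. A region held a median of 13 to 24 reads in an H3K27ac library and of 29 to 75 reads in an H3K27me3 library. In a region of median length, 3 reads correspond to 0.135 to 0.273 per kb for H3K27ac and to 0.0293 to 0.0753 for H3K27me3. H3K27ac values of single short regions are therefore the less precise.

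The labelled cell type was first set against marker genes, by the mark over each TSS. All 15 mesenchymal stromal markers lay in an H3K27ac region, and 3 of them, Nt5e, Twist2 and Lepr, also in an H3K27me3 region. Over all protein-coding genes 50.1% had H3K27ac at the TSS and 28.4% had H3K27me3. Prrx1, a transcription factor of limb and stromal mesenchyme, had 1.83, 1.86 and 2.17 H3K27ac per kb, and Col1a2, a chain of type I collagen, had 1.77, 1.78 and 2.33. Pdgfra, a receptor often used to sort such cells, had 1.15, 1.03 and 1.68. Replicate 3 was the highest for these genes. Of 10 blood cell markers, 5 lay under H3K27me3, 4 under neither mark (Ptprc, which encodes CD45, Spi1, Csf1r and Adgre1) and 1, the macrophage gene Cd68, under H3K27ac. Cd68 shared its H3K27ac region of 44.5 kb with other genes, and it had 0.908, 0.792 and 1.12 per kb. None of the 6 endothelial and 5 epithelial markers had H3K27ac, and all of them lay under H3K27me3 except Pecam1, which lay under neither mark. These calls use 1 TSS per gene. When any TSS of a protein-coding transcript counted, 1 endothelial and 2 blood cell markers lay under H3K27ac only. The T cell receptor subunit gene Cd3e had 1.77, 1.61 and 1.39 H3K27me3 per kb and the epithelial splicing factor gene Esrp1 had 1.76, 1.55 and 1.35. The values of Cd3e are those of a domain of 201 kb that held 8 TSSs.

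Signal per kb differed between the marks mainly in how it followed the length of a region. H3K27ac regions were short, with a median of 4.0 kb (quartiles 2.5 and 10.0 kb), and covered 325 Mb or 12.3% of the genome. H3K27me3 regions had a median of 11 kb (quartiles 5.5 and 25 kb) and covered 608 Mb or 23.0%. The median H3K27ac region had 0.991, 1.00 and 1.14 per kb, 1.04 ± 0.0809 (SD, n = 3), which was 2.62, 2.65 and 3.01 times the uniform level. The median H3K27me3 region had 0.746, 0.759 and 0.724 per kb, 0.743 ± 0.0177 (SD, n = 3), or 1.97, 2.01 and 1.92 times the uniform level. The median levels of the marks were not tested against each other. Their tables were made with different antibodies and depths, and their regions were called from this same signal.

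With length, H3K27me3 per kb rose from 0.669 ± 0.0110 at 2 to 5 kb to 0.817 ± 0.0319 at 20 to 50 kb and to 1.14 ± 0.0864 in the 893 regions over 100 kb (SD, n = 3). This held in every library, with 1.21, 1.16 and 1.04 per kb over 100 kb against 0.676, 0.675 and 0.656 at 2 to 5 kb. H3K27ac per kb was 1.17 ± 0.149 in regions up to 1 kb, 0.996 ± 0.0702 at 5 to 10 kb and 1.22 ± 0.105 in the 244 regions over 100 kb. Across regions Spearman's rank correlation of length with signal per kb was 0.393, 0.335 and 0.393 for H3K27me3 and -0.0795, 0.00182 and -0.0489 for H3K27ac, in 27172 and 31526 regions. Regions are not independent replicates, and each value is over the regions of 1 library, so these are descriptions.

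**Figure D1:**
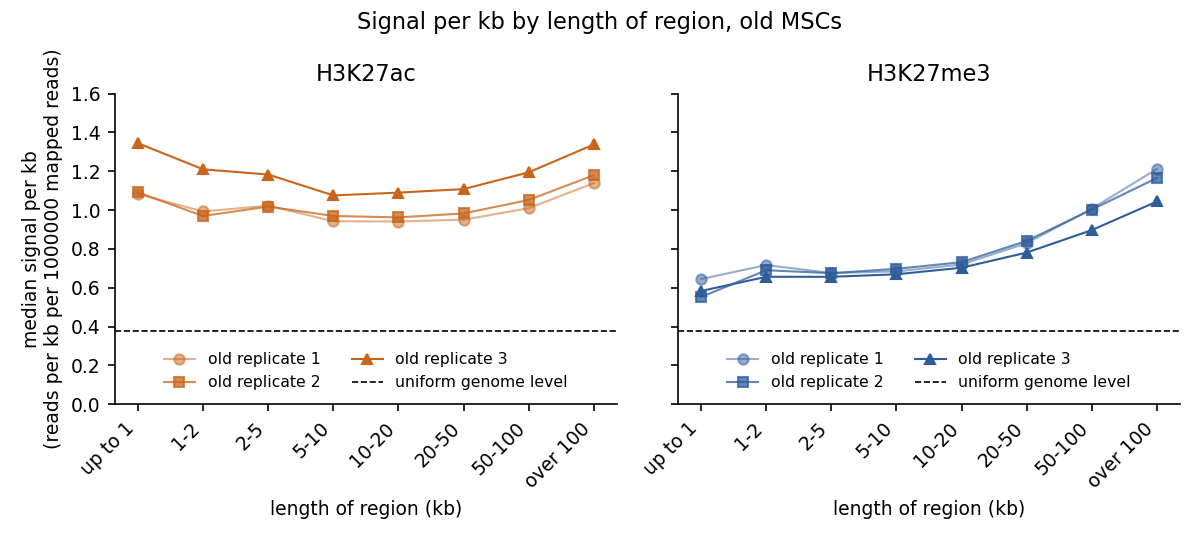
Median signal per kb (reads per kb per 1000000 mapped reads) by length of region (kb), 1 line per old library and 1 panel per mark, with the uniform genome level of 0.378 dashed. H3K27me3 rises from 0.669 at 2 to 5 kb to 1.14 over 100 kb, while H3K27ac stays between 0.996 and 1.22.

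The share of reads inside regions was 33.4%, 34.6% and 39.2% in the H3K27ac libraries and 60.7%, 59.5% and 53.7% in the H3K27me3 libraries. Replicate 1 was the lowest for H3K27ac and replicate 3 for H3K27me3. Set against the share of the genome covered, these reads were 2.72, 2.82 and 3.20 times as dense as a uniform spread for H3K27ac, and 2.64, 2.59 and 2.34 times for H3K27me3. The mean difference of 0.388 gave p = 0.10 (exact permutation test, two-sided), which is the smallest p-value that 3 against 3 libraries allow. This ratio rests on the same called regions and on different antibodies, so the p-value does not tell which mark was the stronger. The difference was 0.154 without replicate 3 of both marks, 0.466 without replicate 2 and 0.544 without replicate 1.

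Regions within 1 kb of a protein-coding TSS (promoter regions) made up 26.6% of H3K27ac regions and 20.1% of H3K27me3 regions, but 52.4% and 40.4% of the sequence covered. They were longer than other regions, with a median of 10.0 kb for H3K27ac and 27.5 kb for H3K27me3. Intergenic regions made up 55.0% of H3K27me3 regions and 32.5% of H3K27ac regions. Per kb, H3K27ac was 1.04, 1.09 and 1.25 in promoter regions, 0.906, 0.909 and 1.04 in other regions inside genes, and 1.02, 1.00 and 1.16 in intergenic regions. H3K27me3 was 1.01, 1.02 and 0.893 in promoter regions against 0.699, 0.706 and 0.688 inside genes and 0.712, 0.724 and 0.700 between genes. Each library of both marks had its highest median in promoter regions, and for H3K27ac the distance to intergenic regions was small.

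The excess of promoter regions over all other regions was 0.0849, 0.158 and 0.178 on the log2 scale of signal per kb for H3K27ac, and 0.501, 0.471 and 0.348 for H3K27me3. The excess was positive in 3 of 3 libraries of either mark, and 0.25 is the smallest p-value that an exact sign-flip permutation test of 3 libraries allows. Without the regions below the 25th percentile of signal per kb, the H3K27ac excess had a mean of 0.00721 and was positive only in replicate 3 (exact sign-flip permutation test, two-sided p = 1), while that of H3K27me3 was 0.352. The values of the marks did not overlap, and the mean difference, H3K27ac minus H3K27me3, was -0.30 (exact permutation test, two-sided p = 0.10, the smallest possible). The difference turned to 0.0194 among regions of 2 to 10 kb (exact permutation test, two-sided p = 0.70). There the excess was 0.238 ± 0.0631 for H3K27ac and 0.219 ± 0.0672 for H3K27me3 (SD, n = 3). Without division by length the excess was 1.56 ± 0.0535 and 2.05 ± 0.0944.

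The densest H3K27ac regions over a TSS, leaving aside one repeat-rich locus described below, belonged to genes of differing function. Foxs1, a forkhead factor expressed in pericytes, had the highest signal per kb, with 2.35, 3.18 and 3.20 in a region of 12 kb on chromosome 2 from 152923001 to 152935000. Arhgef17 had 2.32, 2.55 and 2.89 over 32.5 kb, and Bcar1, the focal adhesion scaffold p130Cas, had 2.30, 2.50 and 2.66 over 47.5 kb. Pex2, a peroxisome assembly factor, Zcchc9, Cyp4f17, Plekhg6 and the interferon-induced GTPase gene Irgm1 were also among them, with means of 2.47 to 2.65. In all 9 regions given, that locus included, replicate 1 was the lowest.

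By total signal, which adds length to density, the leading H3K27ac regions were those of Foxp1, a forkhead transcription factor, Fndc3b, Lpp, a focal adhesion protein, Atxn1 and Pakap with Akap2. The Foxp1 region spanned 615 kb on chromosome 6 from 98918001 to 99533000 and had 1.29, 1.37 and 1.49 per kb, against a median of 1.14 over genes with H3K27ac only. The Fndc3b region of 293.5 kb had 1.61, 1.65 and 1.99 per kb, and those of Lpp, Atxn1 and Akap2 had means of 1.25 to 1.29. None of these 5 regions was among the densest.

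The densest H3K27me3 regions over a TSS were led, after that locus and Sfi1, by Grin2c, a subunit of the NMDA glutamate receptor, and by transcription factors of the nervous system and embryo. Grin2c had 3.22, 3.49 and 2.15 per kb on chromosome 11 from 115246001 to 115269000. Skor1, a corepressor of the nervous system, had 3.14, 3.43 and 2.06 on chromosome 9 from 63133001 to 63161000. Pax6 had 3.14, 2.87 and 1.87 over 49.0 kb on chromosome 2 from 105646001 to 105695000. The proneural factor gene Neurog2 had 2.73, 2.68 and 1.77, the homeobox gene Gsc2 had 2.58, 2.91 and 1.87, and Etv2, a regulator of blood vessel and blood progenitors, had 2.71, 2.61 and 1.77. Gm4881 and the region of E030030I06Rik, Raet1e and H60b, the last a ligand of an activating receptor of natural killer cells, had means of 2.66 and 2.43. In 8 of these 10 regions replicate 3 was the lowest and lay apart from the other libraries, and in the other two, Sfi1 and the repeat-rich locus, replicate 1 was the lowest.

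By total signal the first H3K27me3 region was the Hoxb cluster, a domain of 644.5 kb on chromosome 11 from 96075501 to 96720000 that held 14 TSSs and had 2.08, 1.91 and 1.53 per kb. The domain of Rnf182 and Cd83 (572.5 kb) had 1.45, 1.35 and 1.16, and that of the neural stem cell factor gene Sox1 (476 kb) had 1.71, 1.64 and 1.38. The domains of Kif5c, Lypd6b and Lypd6 (640.5 kb) and of Adra2c, Hmx1 and neighbours (443 kb) had means of 1.09 and 1.55. In each of these 5 domains replicate 1 was the highest and replicate 3 the lowest.

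**Figure D2:**
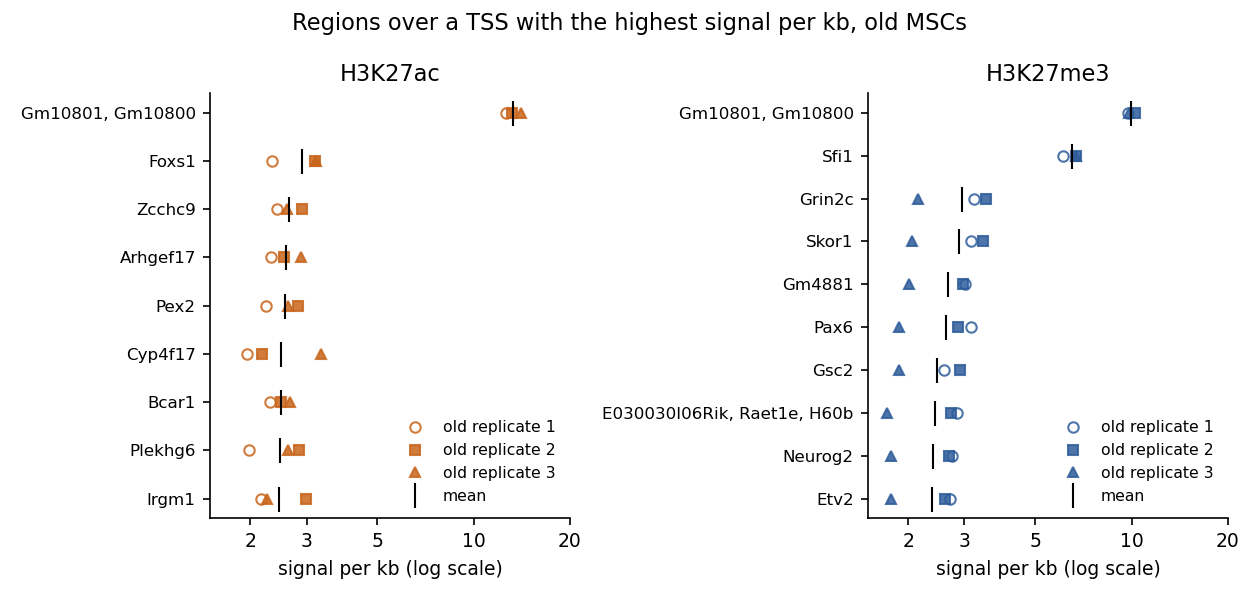
Signal per kb (log scale) in each old library of the regions over a TSS with the highest mean, 9 for H3K27ac (left) and 10 for H3K27me3 (right), with the mean as a bar. Replicate 1 is the lowest in all 9 H3K27ac regions shown, and replicate 3 is the lowest in 8 of 10 H3K27me3 regions.

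One locus led both tables, and other loci rich in repeats stood high for H3K27me3. The region of Gm10801 and Gm10800 on chromosome 2 from 98661501 to 98668000 had identical bounds in both marks, with 12.6, 13.1 and 14.1 H3K27ac per kb and 9.72, 10.3 and 9.83 H3K27me3 per kb. Soft-masked repeats made up 45.5% of it, just under the limit of 50% set for named regions. Sfi1, a centrosome protein gene, had 2.22, 2.47 and 2.30 H3K27ac and 6.11, 6.72 and 6.68 H3K27me3 per kb, with 44.7% repeats in the H3K27me3 region. Coil, which encodes the Cajal body protein coilin, had 9.29, 9.69 and 7.45 H3K27me3 per kb in a region of 55.9% repeats and fell outside the limit. How reads from repeated copies had been assigned is not given in the sources used here, so these values are uncertain.

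By the mark over the TSS, 10283 of 21911 protein-coding genes (46.9%) had H3K27ac only, 5538 (25.3%) had H3K27me3 only, 684 (3.12%) had both and 5406 (24.7%) had neither. The number with both was 1613 when a region within 1 kb of the TSS counted, and 291 when regions had to pass the 25th percentile of signal per kb in every library. Of the 10967 genes with H3K27ac, 6.24% also had H3K27me3, against 50.6% of the 10944 genes without it. The median H3K27ac region over a TSS was 15.5 kb for genes with H3K27ac only and 4.0 kb for genes with both marks. The corresponding H3K27me3 regions were 42 and 27 kb long. Promoter CpG content, as the observed over expected ratio within 500 bases of the TSS, had a median of 0.739 for H3K27ac only, 0.653 for both marks, 0.378 for H3K27me3 only and 0.162 for neither mark. CpG-rich promoters (ratio of at least 0.6 and at least 50% GC) were 72.2%, 57%, 28.4% and 6.09% of these classes and 44.4% of all genes. Within the H3K27me3 genes the quartiles of the ratio lay at 0.201 and 0.637, so CpG-poor and CpG-rich promoters were both numerous.

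**Figure D3:**
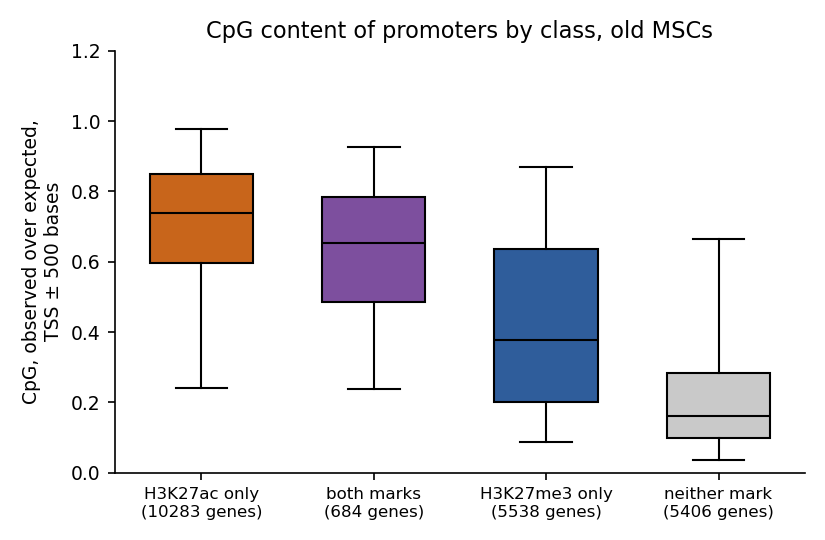
Observed over expected CpG within 500 bases of the TSS for protein-coding genes by the marks over the TSS. Boxes span the quartiles with the median, and whiskers the 5th to 95th percentile of genes, with medians from 0.739 for H3K27ac only down to 0.162 for neither mark.

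CpG content went with the amount of H3K27me3 but hardly with that of H3K27ac. Over genes with H3K27me3, signal per kb of the whole region over the TSS was 0.960 ± 0.0578 where the CpG ratio was up to 0.2. It was 1.05 ± 0.0887 at 0.4 to 0.6 and 1.16 ± 0.109 above 0.8 (SD over libraries, n = 3). Each library rose from the lowest to the highest class, from 0.988, 0.998 and 0.894 to 1.24, 1.2 and 1.03. Over genes with H3K27ac the same classes had 1.15 ± 0.122, 1.14 ± 0.130 and 1.12 ± 0.112. Within libraries, H3K27ac went from 1.07, 1.08 and 1.29 in the lowest class to 1.02, 1.09 and 1.24 in the highest. It was thus slightly lower in replicates 1 and 3 and slightly higher in replicate 2. Genes of one domain share its value, so the genes of a class are not independent. H3K27me3 per kb also rose with the length of a region, and the part of length in this trend was not tested.

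Gene lists showed which programmes lay under which mark. The lists were compiled with earlier results of these data known, and their counts are read against 46.9% of all genes with H3K27ac only, 25.3% with H3K27me3 only and 3.12% with both. Some genes, such as Col1a1, Col1a2, Wnt1 and Bmp2, stand in more than 1 list, so the lists are not independent. Signal per kb is that of the whole region over the TSS, which some genes share with others. Of 20 matrix and cytoskeleton symbols, 18 matched an annotated gene. All 18 lay under H3K27ac only, with a median of 1.47 per kb against 1.14 over all genes with H3K27ac, and 14 of them were above that level. Sparc, which encodes the matrix protein osteonectin, had 1.63, 1.75 and 2.02 per kb over 76.0 kb, and Col1a1 had 1.55, 1.80 and 2.15 over 52.0 kb. Of 14 housekeeping genes 13 lay under H3K27ac only, and their median of 1.10 was near that of all genes. The exception, the elongation factor gene Eef1a1, lay under neither mark at the 1 TSS used. With any TSS of a protein-coding transcript counted, all 14 lay under H3K27ac only.

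All 18 neural regulators and all 18 regulators of endoderm, heart, muscle and blood lay under H3K27me3 only. Their medians were 1.6 and 1.48 per kb, against 1.04 over all genes with H3K27me3, and 18 and 17 of them were above that level. They lay in 18 and 17 separate regions. Pou4f1 had 2.59, 2.48 and 1.84 per kb. Among the other lineages, Gata3, a regulator of T cells and ear, had 2.42, 2.44 and 1.66 and the endoderm factor gene Sox17 had 2.38, 2.30 and 1.57. Replicate 3 was the lowest for each of these genes.

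Secreted Wnt and BMP ligands, which direct bone formation, lay mostly under H3K27me3: 17 of 22 under H3K27me3 only, 3 (Wnt10b, Wnt11 and Bmp5) under both marks and 2 (Wnt5a and Wnt5b) under H3K27ac only. Wnt3a, a ligand of the β-catenin pathway, had 2.26, 2.04 and 1.66 H3K27me3 per kb and Wnt1 had 2.41, 2.04 and 1.47. Wnt5a, a ligand that acts largely outside that pathway, had 1.22, 0.957 and 1.30 H3K27ac per kb.

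Genes of the fates open to MSCs were divided. Of 13 osteogenic genes 4 lay under H3K27ac only, 5 under H3K27me3 only, 2 (Dlx5 and Alpl) under both and 2 (Bglap and Bglap2) under neither. Runx2 and Sp7, the transcription factors of osteoblast commitment, had 0.962, 0.872 and 1.14 and 1.07, 1.01 and 1.31 H3K27ac per kb, which is at or below the median of genes with H3K27ac. These regions were shared, with 2 TSSs in 52.5 kb at Runx2 and 5 TSSs in 86.5 kb at Sp7. Of 10 adipogenic genes 6 lay under H3K27ac only, including the master regulator Pparg with 0.895, 0.847 and 0.788 per kb, 3 under H3K27me3 only (Plin1, Adipoq and Klf15) and 1, lipoprotein lipase (Lpl), under both. Of 10 chondrogenic genes 5 lay under H3K27ac only, 2 under H3K27me3 only and 3 under both (Sox6, Acan and Matn3). Sox9, the cartilage master regulator, had 0.884, 0.763 and 1.40 H3K27ac per kb.

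Inhibitors of the cell cycle, several of which rise in senescence, lay under H3K27ac in 8 of 9 cases. Cdkn2c, which encodes p18, had the highest level with 2.14, 1.99 and 2.84 per kb. The region of 19.5 kb shared by Cdkn2a and Cdkn2b, which encode p16, p19 and p15 and are well known Polycomb targets, had 1.29, 1.04 and 1.99 H3K27ac per kb. The TSS used for Cdkn2a was the 5' end of the gene, so p16 and p19 were not told apart. With any TSS of a protein-coding transcript counted, 7 inhibitors lay under H3K27ac only and 1 under both marks. Cdkn1c, an imprinted gene that encodes p57, lay under H3K27me3 with 1.33, 1.45 and 1.11. Among 16 genes for Polycomb subunits and H3K27 enzymes 12 lay under H3K27ac only, with Kdm6b, a demethylase of H3K27me3, the highest at 1.47, 1.81 and 2.58 and Ring1 at 1.16, 1.83 and 2.15. In contrast, the chromobox genes Cbx8, Cbx2 and Cbx7, which encode readers of H3K27me3, lay under H3K27me3 only, with 2.45, 2.35 and 1.54 per kb at Cbx8.

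**Figure D4:**
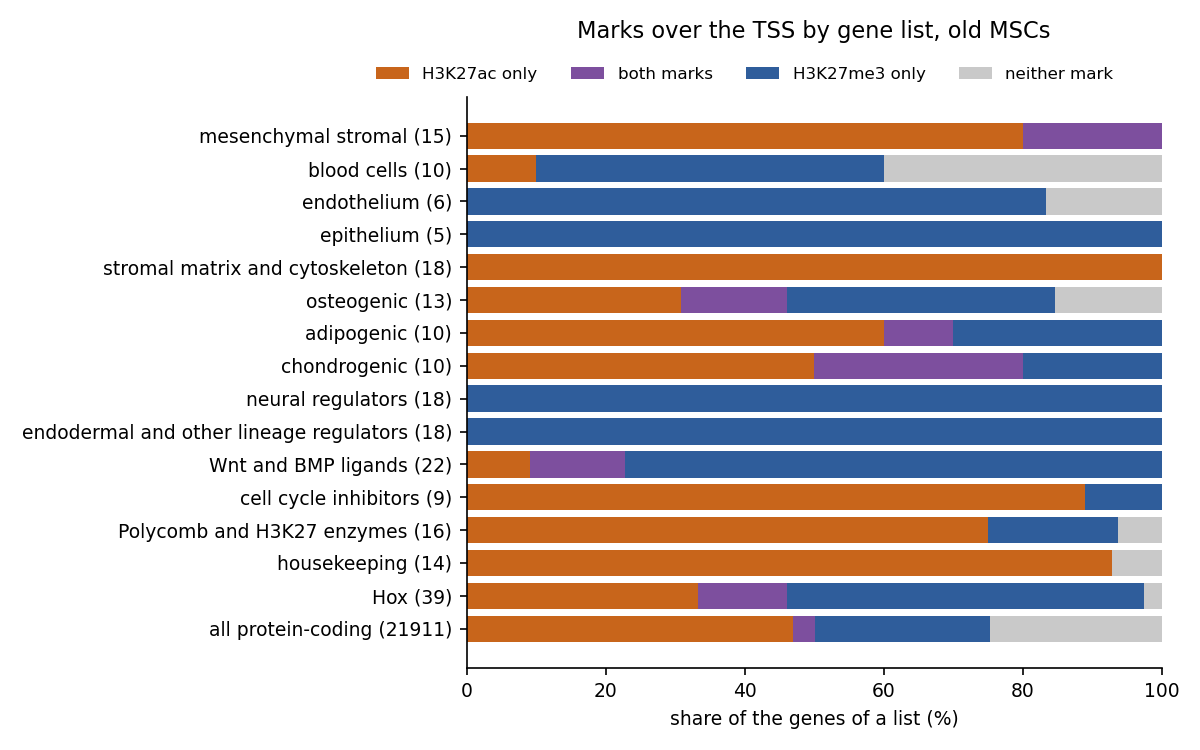
Share of the genes of each list (%, number of genes in brackets) with H3K27ac only, both marks, H3K27me3 only or neither mark over the TSS, with all 21911 protein-coding genes in the last bar. Matrix genes are all under H3K27ac and both lists of lineage regulators all under H3K27me3.

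The 39 Hox genes, which encode position along the body, fell into blocks by cluster. All 10 Hoxb genes lay in the single H3K27me3 domain described above. Of 9 Hoxd genes 8 lay under H3K27me3 only, in a domain of 244.5 kb with 1.99, 1.89 and 1.55 per kb, and Hoxd8 also had an H3K27ac region of 2.0 kb inside it. That small region had 0.632, 0.364 and 1.08 H3K27ac per kb, with as few as 2 reads in a library. Of 11 Hoxa genes 8 lay under H3K27ac only, 1 (Hoxa13) under H3K27me3 only, 1 (Hoxa11) under both and 1 (Hoxa5) under neither. The H3K27ac region of Hoxa3, Hoxa6, Hoxa7, Hoxa9 and Hoxa10 on chromosome 6 from 52207501 to 52247000 had 1.70, 1.88 and 2.39 per kb. Hoxa3 was placed there by the 5' end of the gene, at 52213336, between the TSSs of Hoxa6 and Hoxa7. The H3K27me3 domain of Hoxa13, from 52243501 to 52349000, had 2.49, 2.35 and 1.65, and Hoxa11 lay in the 3.5 kb shared by them. Of 9 Hoxc genes 5 lay under H3K27ac only, in a region of 103 kb with 1.89, 1.73 and 2.18 per kb, 1 (Hoxc12) under H3K27me3 only and 3 (Hoxc4, Hoxc11 and Hoxc13) under both. In Hoxa, then, the marks changed over near Hoxa11, while Hoxb and Hoxd were under H3K27me3 throughout. The change in Hoxc, near Hoxc11, was less clean. Hoxc13, beyond it, had an H3K27ac region with 0.547, 1.10 and 0.961 per kb. Hoxc4, at the other end, had only 0.423, 0.502 and 0.398 H3K27me3 per kb, near the uniform level of 0.378. The 18 Hox TSSs with H3K27ac lay in 6 regions and the 25 with H3K27me3 in 5, so these genes are far from independent.

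Genes with both marks were mostly places where a short acetylated region lay in or at the edge of a Polycomb domain. Their regions shared a median of 2.5 kb (quartiles 1.5 and 4.0 kb), and 588 of 684 genes (86.0%) shared up to 5 kb. Over all regions, 4905 H3K27ac regions (15.6%) overlapped H3K27me3, and 4129 H3K27me3 regions (15.2%) overlapped H3K27ac. The shared sequence was 10.4 Mb, or 3.19% of that under H3K27ac and 1.70% of that under H3K27me3. Of 4971 overlapping pairs, in 2608 (52.5%) the H3K27ac region lay inside the H3K27me3 region, in 135 (2.72%) the reverse, and in 2216 (44.6%) they overlapped at their ends. The enclosed H3K27ac regions had a median length of 2.0 kb inside domains of 49.5 kb. A further 7779 H3K27ac regions (24.7%) lay within 5 kb of an H3K27me3 region without overlap.

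Over regions of all lengths, each mark was slightly lower at genes with both marks than at genes with that mark alone, and for H3K27me3 this difference was close to 0 among regions of like length. H3K27ac per kb was 0.993, 1.02 and 1.18 over 652 regions of genes with both marks and 1.06, 1.13 and 1.29 over 7511 regions of genes with H3K27ac only, a log2 difference of -0.12 ± 0.026 (SD, n = 3). H3K27me3 per kb was 0.966, 0.985 and 0.841 over 645 regions and 1.05, 1.05 and 0.919 over 4061 regions with H3K27me3 only, a log2 difference of -0.11 ± 0.018. Both differences were negative in 3 of 3 libraries (exact sign-flip permutation test, two-sided p = 0.25, the smallest possible). Among regions of 2 to 10 kb the H3K27ac difference was -0.26 with the same p, but the H3K27me3 difference was -0.013, negative in 2 libraries and 0 in the other (exact sign-flip permutation test, two-sided p = 0.50). The cells of a library are pooled, so marks on the same chromosome and in different cells cannot be told apart.

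Ranked by the lower of the percentiles of the marks, the genes with both marks were led by Gm10800, Gm10801 and Sfi1. Hoxa11 followed, with 1.70, 1.88 and 2.39 H3K27ac and 2.49, 2.35 and 1.65 H3K27me3 per kb. Hjurp, a chaperone of the centromeric histone, Trpm8, the cold-sensing channel, Mroh2a and Ugt1a1, a bilirubin conjugating enzyme, shared an H3K27ac region of 99.5 kb on chromosome 1 from 88211501 to 88311000 with 1.78, 1.99 and 2.00 per kb. H3K27me3 there lay in regions of 54.5 kb, with 2.02, 2.02 and 1.84 per kb, and 55.0 kb, with 1.65, 2.08 and 1.93 per kb. Of the H3K27ac region 37.0 kb and 54.5 kb were shared with them, far more than the median of 2.5 kb. Hoxc11 had 1.89, 1.73 and 2.18 H3K27ac and 1.93, 1.56 and 1.29 H3K27me3 per kb. Rnf43, an inhibitor of Wnt receptors, had 1.26, 1.45 and 2.15 H3K27ac per kb in a region of 1.0 kb that rested on 4 reads in one library.

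Among stromal genes with both marks, Twist2, a mesenchymal transcription factor, had 0.974, 1.45 and 1.40 H3K27ac per kb in 5.0 kb that lay wholly inside an H3K27me3 domain of 84.5 kb with 1.64, 1.56 and 1.24 per kb. Dlx5, an osteoblast homeobox factor, had 0.650, 0.727 and 0.860 H3K27ac per kb in 2.5 kb within 65.0 kb of H3K27me3 at 1.85, 1.94 and 1.34. Its H3K27ac region held as few as 5 reads in a library. Matn3 had 2.53, 0.727 and 2.15 H3K27ac per kb, but in 1.0 kb with as few as 2 reads in a library.

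Replicates were set against counting error on the recovered reads. The SD of log2 scaled signal between libraries had a median of 0.27 for H3K27ac and 0.20 for H3K27me3. Spearman's rank correlation of signal per kb between libraries was 0.386 to 0.446 for H3K27ac and 0.534 to 0.635 for H3K27me3, over regions. By a chi-square test against Poisson error, with Benjamini-Hochberg adjustment over all regions, 31 H3K27ac regions (0.0983%) and 1629 H3K27me3 regions (6.00%) varied between libraries at an adjusted p under 0.05. At an unadjusted p under 0.05 the shares were 7.99% and 17.8%. The test takes every read as a separate molecule, and how duplicate reads had been treated is not given in the sources used here. Summed over regions, chi-square per degree of freedom was 1.19 for H3K27ac and 1.99 for H3K27me3, where counting error alone would give 1. Leaving out replicate 1, 2 or 3 left 15, 4 and 38 H3K27ac regions and 914, 881 and 615 H3K27me3 regions, in a test of only 2 libraries. With all libraries thinned to 2750953 mapped reads, 17 H3K27ac regions and 427 H3K27me3 regions were called. H3K27me3 regions, which are longer, still held more reads than H3K27ac regions, and the part of length in this difference was not tested.

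H3K27me3 regions that varied were concentrated among the strongest. Regions were divided into 10 equal classes by mean signal per kb. The mean was that of the same 3 libraries, so the deviations of single libraries are not independent of the classes. The part of this classing in the slopes given below was not tested. In the strongest class 837 (30.8%) were called, against 55 (2.02%) in the weakest, and the median reads per region were 328 and 20.8. The part of read number in this contrast was not tested. Over a TSS 863 of 4706 regions (18.3%) were called. In the strongest class replicates 1 and 2 lay 0.066 and 0.064 above the mean of the libraries on the log2 scale and replicate 3 lay 0.12 below it, whereas in the weakest class replicates 1 and 3 lay 0.096 and 0.15 above and replicate 2 lay 0.22 below. Of the 1629 regions, replicate 3 was the lowest in 928, replicate 2 in 427 and replicate 1 in 274. H3K27ac had a smaller slope of this kind, with replicate 1 0.15 above the mean in the weakest class and 0.073 below it in the strongest, and replicate 2 0.13 below and 0.071 above. H3K27me3 replicate 3 and H3K27ac replicate 1 had the lowest share of reads in regions, 53.7% and 33.4%, and replicate 2 had the fewest reads for both marks. The parts of that share and of depth in the spread were not tested.

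**Figure D5:**
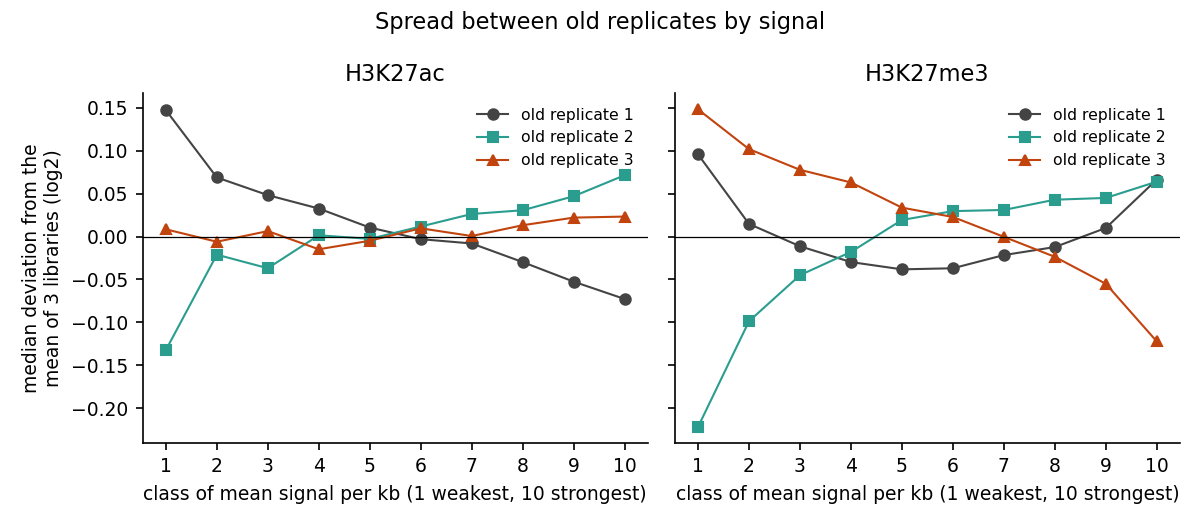
Median deviation of each old library from the mean of the 3 libraries (log2 of scaled signal) by class of mean signal per kb, 10 classes of equal size, for H3K27ac (left) and H3K27me3 (right). The classes were formed from the same 3 libraries. H3K27me3 replicate 3 falls from 0.15 in the weakest class to -0.12 in the strongest, and replicate 2 rises from -0.22 to 0.064.

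Ranked by chi-square, which grows with read number, the Hoxb domain came first among H3K27me3 regions over a TSS, followed by Ebf2, Pax2, Nr2f1 and Rhcg. It had 2.08, 1.91 and 1.53 per kb from 12481, 4459 and 6768 reads (adjusted p = 1.02e-47 in the chi-square test). Its ratio of highest to lowest after scaling, 1.26, was below the median of 1.39 over the called regions. Ebf2, a factor of adipocyte and stromal precursors, had 1.17, 0.685 and 0.883 over 218 kb, so replicate 2 was the lowest (ratio 1.68). Nr2f1, a nuclear receptor of neural and mesenchymal development, had 2.41, 1.27 and 1.44 over 50.0 kb, with replicate 1 apart (ratio 1.87). Pax2, a kidney and nerve factor, had 2.07, 2.09 and 1.54, and Rhcg, an ammonia transporter, had 2.44, 2.51 and 1.77, both lowest in replicate 3.

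Of H3K27ac regions over a TSS, that of Crim1 and Fez2 had the largest chi-square, with 1.13, 1.51 and 1.37 per kb over 223 kb (adjusted p = 4.21e-06 in the same test). Its ratio of 1.31 was below the median of 1.84 over the called regions. Lrrc8c, a subunit of volume-regulated anion channels, had 0.834, 1.70 and 0.667 over 14.5 kb, the widest ratio at 2.91. Igfbp7, a secreted binding protein linked to senescence, had 1.26, 1.76 and 1.42, and Hmga2, an architectural chromatin protein, had 1.09, 1.46 and 1.24. Zeb2, a mesenchymal transcription factor, had 1.09, 0.804 and 1.27. Replicate 2 was the highest in 4 of these 5 regions and the lowest for Zeb2. A test on reads of this kind compares the libraries and not conditions.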

How the data were processed

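CUT&RUN was performed on 12 libraries, of which the 6 of old cells are used here, grouped by their labels. For each mark the authors deposited 1 table of a signal per called region and library. The submitters' processing notes name Bowtie2, Picard and the build mm10 (GRCm38), and the caller is not given in the sources used here. The deposited signal was taken as a read count per 1000000 mapped reads divided by a constant 0.5 kb. It fell on whole reads with a largest deviation of 2.18e-11, so reads were recovered, and 0 columns were left unmapped. Library sizes also rest on the constant of 0.5 kb, which the fit to whole reads does not check. Mapped reads, shares of reads in regions, signal per kb and fold over uniform scale with it. Regions given the young state by the authors were left out.

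Signal per kb was reads per kb of region per 1000000 mapped reads. TSSs were the 5' ends of GENCODE M21 protein-coding genes, and promoter sequences came from RefSeq. Log2 values of single regions carried 0.5 reads, and the spread 0.5 on the deposited scale after median-of-ratios scaling. Exact permutation tests, chi-square tests with Benjamini-Hochberg adjustment and edgeR 4.0.16 (R 4.3.3, for dispersion and TMM) were run with Python 3.11.15, scipy 1.17.1. The chi-square script was tested on simulated data. Named regions over a TSS were, per mark, the 10 densest (at least 1 kb, up to 50% repeats, top 5% in every library), the 5 of highest total signal, the 5 with the largest chi-square and the 10 genes with both marks whose lower percentile was highest, plus the strongest and unlike members of the 15 lists. Members and lists were chosen with earlier results of these data known. Intervals and floors cover counting error only. Young libraries were not analysed here, and a few items, among them 1 of the 10 densest H3K27ac regions, are not reported here.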

Additional observations from a re-analysis of the deposited data

How the results depend on the processing

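Of 142 alternative values for the comparisons, 113 kept their direction or size, as did 419 of 434 values for named regions and list counts. These include effects that kept their sign but nearly vanished: the H3K27ac promoter excess was 0.00721 without the regions below the 25th percentile, and the H3K27me3 difference between genes with both marks and with H3K27me3 only was -0.013 in regions of 2 to 10 kb. Leaving out one replicate at a time gave 0.995 to 1.07 for the median H3K27ac signal per kb, 0.735 to 0.753 for H3K27me3, 0.187 to 0.233 and 0.135 to 0.186 for the median spread of H3K27ac and H3K27me3, and 4 to 38 and 615 to 914 variable regions. The lowest counts came without replicate 2 for H3K27ac and without replicate 3 for H3K27me3. The difference in fold over uniform was 0.154 to 0.544 and kept its sign, lowest without replicate 3. Without the regions below the 25th percentile the medians were 1.15 and 0.818. H3K27me3 was 0.679 in regions of 2 to 10 kb and 0.795 as a mean. In regions of 2 to 10 kb the difference in promoter excess reversed to 0.0194. Genes with both marks numbered 1613 within 1 kb of the TSS and 291 when only regions above the 25th percentile in every library counted. The spread of H3K27ac and H3K27me3 was 0.311 and 0.263 after thinning, 0.175 and 0.132 over TSSs, and 0.0562 and 0.0885 as edgeR's biological coefficient of variation, another quantity. Scaled by total mapped reads, 559 and 2771 regions varied, 17 and 427 after thinning, and 13 and 206 with a ratio of at least 2. The causes were not tested beyond what these settings change by construction. Taking the shared replicate number as a pairing left the differences at 0.388 and -0.30 (exact sign-flip permutation test, p = 0.25, the smallest possible), against p = 0.10 without the replicate block. Deviations of same-numbered libraries correlated at -0.0878, -0.114 and -0.0589 over overlapping pairs, and those of unlike-numbered libraries at -0.0383 to 0.103. The labels do not say whether the numbers pair the libraries, and these values do not decide it. The main tests did not use the numbers as pairs. Depth limits H3K27ac most, with a median of 13 reads per region in replicate 2.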

Other observations

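On the X chromosome both marks covered little sequence: 1.31% under H3K27ac in 507 regions, against 13.5% of the autosomes, and 3.54% under H3K27me3 in 606 regions, against 25.1%. Within these regions the median signal per kb was 0.928, 0.935 and 1.13 for H3K27ac, against 0.993, 1.00 and 1.14 on autosomes, and 0.708, 0.653 and 0.583 for H3K27me3, against 0.747, 0.763 and 0.729. The labels give no sex, and leaving out the sex chromosomes changed no direction.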
